A study of Homo sapiens with 8 samples.

Results

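The loci of the EGFR family comprised the genes of 3 receptors (EGFR, ERBB2 and ERBB3), of 5 ligands (EREG, AREG, TGFA, HBEGF and NRG1) and of ERRFI1, a feedback inhibitor of the receptors. Regions bound by p63 were assigned to them by position: a region belonged to a locus when its midpoint lay inside a fixed window of hg19 around the gene, with EREG and AREG in 1 window, so that the 9 genes made 8 loci. These windows held 42 distinct regions of the 15267 in the series, 36 of the 13829 listed in CAL27 and 24 of the 5886 listed in SCC13. Binding had been measured by chromatin immunoprecipitation and sequencing of p63 in the CAL27 and SCC13 cell lines, both from human squamous cell carcinomas and labelled wild type and untreated. CAL27 cells were grown in DMEM F:12 with 10% FBS. SCC13 cells were grown in Keratinocyte-SFM with bovine pituitary extract, 0.3 mM CaCl2 and 0.2 ng/ml EGF, the first known ligand of EGFR, so that line and medium cannot be told apart in any difference between the lists. The 8 samples formed 4 groups of 2, p63 immunoprecipitations and samples titled none in each line, and 1 list of regions covered both p63 replicates of a line. The lists gave positions only, with no score, height or depth. No spread between replicates could be computed and no test between the lines was made. The lists are the authors' calls, and absence from one of them does not show that p63 was not bound there.

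The transcription factor p63, encoded by TP63, marks basal keratinocytes and squamous carcinomas and binds mainly at enhancers. EGFR, ERBB2, ERBB3 and ERBB4 are receptor tyrosine kinases of the cell surface. Ligands with an EGF-like domain bind EGFR, ERBB3 or ERBB4, or several of these, and bring the receptors into pairs, which drives proliferation and survival. ERBB2 has no known ligand of its own, and ERBB3 has little kinase activity and signals through its partner. EGFR signalling sustains the growth and migration of keratinocytes, and EGFR is a drug target in squamous carcinoma of the head and neck.

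Because EGFR was the most densely bound locus in CAL27, the sequences before its 2 start sites in the RefSeq table of promoters are shown. They cover the 250 bases before each start on the plus strand of GRCh38.p14, at chr7:55018767-55019016 and chr7:55109589-55109838. These positions are of another build than the regions and were not converted, so the start sites were not compared with the regions. Capitals mark matches to the AP-1 motif TGANTCA, the site of the FOS and JUN factors that share many keratinocyte enhancers with p63.
EGFR, first start: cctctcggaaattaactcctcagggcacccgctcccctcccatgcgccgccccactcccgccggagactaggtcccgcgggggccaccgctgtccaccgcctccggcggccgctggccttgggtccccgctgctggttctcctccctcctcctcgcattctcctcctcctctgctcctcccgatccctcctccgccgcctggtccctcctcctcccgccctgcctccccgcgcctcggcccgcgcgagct
EGFR, second start: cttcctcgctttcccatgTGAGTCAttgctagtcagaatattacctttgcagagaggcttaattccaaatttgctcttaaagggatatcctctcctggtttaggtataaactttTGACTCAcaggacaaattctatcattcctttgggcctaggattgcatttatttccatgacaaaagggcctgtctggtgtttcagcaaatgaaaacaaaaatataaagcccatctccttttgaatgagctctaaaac
The first sequence is rich in G and C (73.6%) and held no match. The second (38.8% G and C) held 2 matches, which begin 232 and 136 bases before the start. Of all 35116 promoters of 300 bases in that table (250 before and 50 after the start), 7.71% held at least 1 AP-1 match and 0.515% held 2 or more. The table had 9 promoters for 7 of the 9 member genes (none was matched for ERBB3 and NRG1), and 2 of the 9, the second EGFR promoter and that of ERBB2, held the AP-1 motif. None of the 9 held the paired core of the p53 family response element, which 4.79% of all promoters held, or the forkhead motif TGTTTAC, which 3.42% held; both strands were searched, and the forkhead motif was chosen because the series title names FOXK1 as the cofactor of p63. The sequences of the p63 regions were not retrieved here, and their place in exons, introns or promoters was not analysed. Whether a promoter that was searched overlaps a p63 region is therefore not known.

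EGFR, the receptor of EGF, had the most p63 regions of the 8 loci. Its window, chromosome 7 from 54.99 to 55.38 Mb, held 11 regions in CAL27 and 4 in SCC13, and all 4 of SCC13 were also listed in CAL27. Over the whole lists, 32.2% of CAL27 regions were also listed in SCC13 and 75.6% of SCC13 regions in CAL27. The 4 regions of both lists lay at chr7:55034821-55035747, chr7:55176679-55177690, chr7:55187611-55188968 and chr7:55199862-55201703. The last of these, 1842 bp wide, was the widest region of any locus, and only 2.01% of all CAL27 regions were at least as wide. The 3 at the centre of the window fell within 25.0 kb of each other in both lines, with a further region of CAL27 at chr7:55178724-55179280 among them. The other 6 CAL27 regions stood apart from that group. A run of 5 of them began at chr7:55014094-55015527 and went on at chr7:55063266-55063715, chr7:55087892-55089144, chr7:55111312-55112263 and chr7:55121014-55122373. The sixth lay on the far side, at chr7:55282367-55283159. Both lists thus had the central group and 1 region well below it, and CAL27 alone had the 4 regions between. In the RefSeq gene order EGFR stands between SEC61G and LANCL2.

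**Figure D1:**
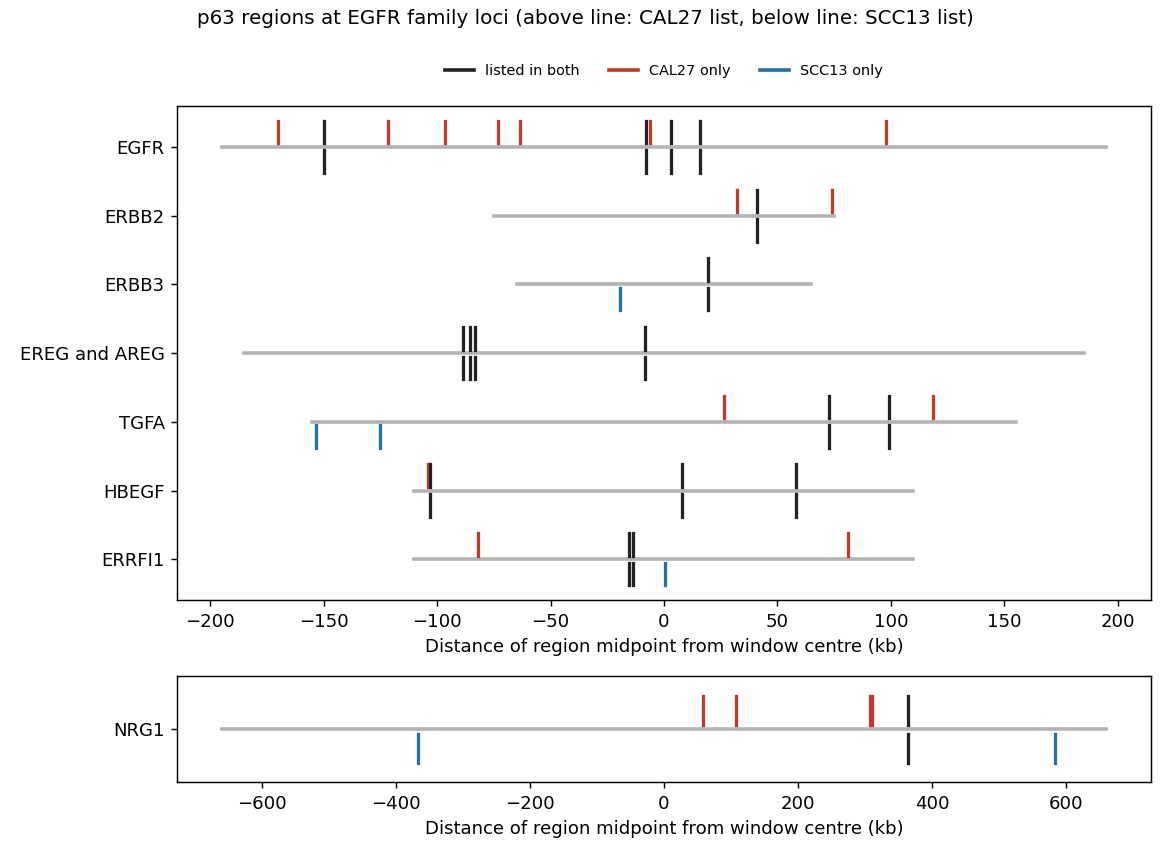
Position of every p63 region at the 8 loci, as distance of its midpoint from the window centre in kb (x axis), with 1 row per locus and NRG1 on a scale of its own. Ticks above a line are regions of CAL27 and ticks below it regions of SCC13, in black where both lists hold the region, and the grey line is the window; EGFR has 11 ticks above and 4 below, and the EREG and AREG window 4 black ticks.

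ERBB2, the receptor with no known ligand, had 3 regions in CAL27 and 1 in SCC13. Across the whole lists 32.2% of CAL27 and 75.6% of SCC13 regions were shared. The region of both lists, chr17:37905221-37907009, was 1789 bp wide, and the CAL27 region beside it, chr17:37896236-37898032, was 1797 bp wide. These were the second and the third widest regions of the 8 loci, after the EGFR region of 1842 bp. The other CAL27 region, chr17:37938525-37939503, lay 0.986 kb inside the window's edge. All 3 were in the upper part of the window of 150 kb, and its lowest 106 kb held none. RefSeq places PGAP3 directly before ERBB2 and MIEN1 directly after it. Genes farther off were not named, and neither ERBB2 nor any other gene was placed within the window. The regions of this window thus cannot be assigned to ERBB2 rather than to another gene. The same limit holds at the other loci, where regions were also assigned by position only. RPS26 and PA2G4 stand beside ERBB3, PFDN1 and SLC4A9 beside HBEGF, WRN and LOC128092250 beside NRG1, and PARK7 and SLC45A1 beside ERRFI1.

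ERBB3, the receptor with little kinase activity, was the only locus with fewer regions in CAL27 than in SCC13. The region chr12:56504297-56504965 was in both lists, and chr12:56465093-56466067 was listed in SCC13 only. With 1 region against 2, the difference rests on a single call.

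EREG and AREG encode epiregulin and amphiregulin, ligands of EGFR that keratinocytes make themselves. All 4 regions in their shared window were in both lists, beside 32.2% of the whole CAL27 list and 75.6% of the whole SCC13 list. Of these, 3 lay side by side within 6.45 kb, at chr4:75275837-75276538, chr4:75279086-75279889 and chr4:75281254-75282284. The fourth, chr4:75356433-75356948, was the narrowest of the 18 shared regions at 516 bp. The longest stretch without a region, 193 kb, ran from the fourth region to the upper edge of the window. Within 50 kb outside the window there were 3 more regions, all listed in CAL27 only, at chr4:75149351-75149775, chr4:75557817-75558404 and chr4:75584718-75585181, so the full agreement of the lists held inside the window only. EPGN and BTC, further EGFR ligands, are the next genes beyond EREG and AREG in the RefSeq order. The hg19 build carries a second, near-identical copy of AREG (AREGB), where short reads are hard to place.

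TGFA, transforming growth factor alpha, had 4 regions in each line, and 2 of them were common to both. Over the whole lists 32.2% of CAL27 and 75.6% of SCC13 regions were shared. The shared regions were chr2:70797050-70798124 and chr2:70823359-70824770. CAL27 alone had chr2:70751032-70751849 and chr2:70843226-70843833, 1 on either side of the shared pair. SCC13 alone had chr2:70571235-70571888 and chr2:70598941-70600479, at the other end of the window and 151 kb away from the nearest region of CAL27. The second of these was 1539 bp wide, and 7.56% of SCC13 regions were at least as wide. It was the widest of the 6 regions listed in SCC13 only. FAM136A is the next gene of the RefSeq order at one side of TGFA and ADD2 at the other.

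HBEGF, the heparin-binding EGF-like growth factor released in wounded epithelium, had 4 regions in CAL27 and 3 in SCC13. The 3 shared regions were chr5:139616587-139617450, chr5:139727449-139728288 and chr5:139777691-139778583. They had nearly equal widths, 864, 840 and 893 bp. The CAL27 region that SCC13 lacked, chr5:139615513-139616250, had its midpoint 1.14 kb from that of the first shared region. The lists thus differed here by a single region that lies beside a shared one. Of the whole lists, 32.2% of CAL27 and 75.6% of SCC13 regions were shared.

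NRG1, neuregulin 1, the ligand of ERBB3 and ERBB4, had the fewest regions for its length of the 8 loci. It also had the lowest share of them in both lists, 1 of 7 and so a single region, beside 4448 of all 15267 distinct regions. Its window of 1320 kb on chromosome 8 held 5 regions in CAL27 and 3 in SCC13, and the shared one was chr8:32423233-32424233. The CAL27 regions that SCC13 lacked were chr8:32117240-32117914, chr8:32167183-32168766, chr8:32367754-32368559 and chr8:32370520-32371046. Those that CAL27 lacked, chr8:31693056-31693503 and chr8:32642612-32643005, were the narrowest of all 42 regions, at 448 and 394 bp. No region was listed in a stretch of 424 kb between the first and the second.

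ERRFI1, also called MIG6, encodes an adaptor that is induced by EGFR signalling and blocks the receptor's kinase. It had 4 regions in CAL27 and 3 in SCC13. Shared regions made up 32.2% of the whole CAL27 list and 75.6% of the whole SCC13 list. The 2 shared regions, chr1:8064210-8065174 and chr1:8066152-8066959, were neighbours within 2.75 kb. In SCC13 they were followed by chr1:8080157-8080986, 14 kb from the second by midpoint and 0.571 kb from the centre of the window. CAL27 instead had 1 further region on each side, chr1:7997802-7998616 and chr1:8160591-8161385, the first 66.5 kb from the nearest shared region by midpoint and the second farther.

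**Figure D2:**
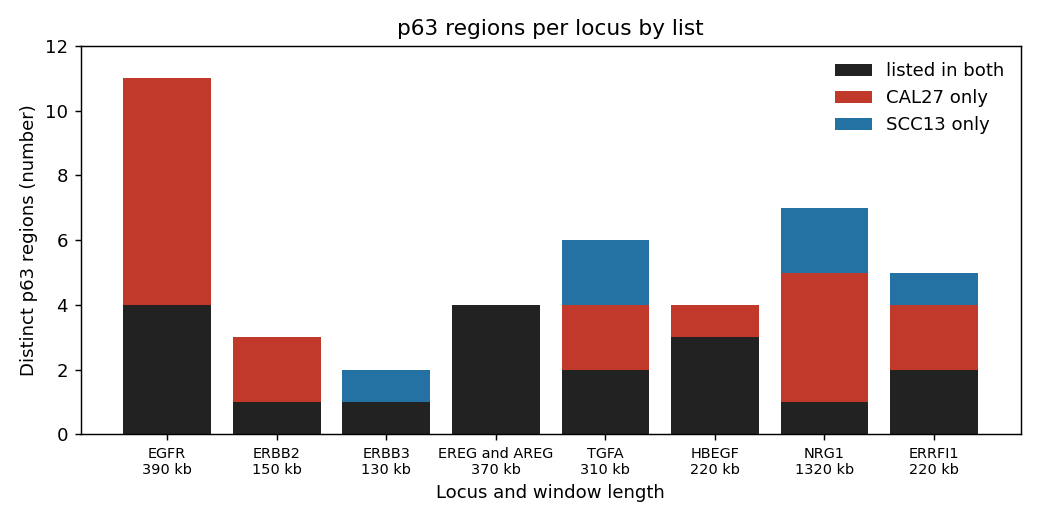
Number of distinct p63 regions (y axis) per locus (x axis, with the window length), divided into regions of both lists, of CAL27 only and of SCC13 only. EGFR has 7 regions of CAL27 only and none of SCC13 only, where 9381 of all 13829 CAL27 regions are of CAL27 only. All 4 at EREG and AREG are of both lists.

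Across the 8 loci the lists were closer in number than they were over the genome. CAL27 had 1.5 times as many regions as SCC13 in the windows, against 2.35 times over the whole lists. No interval was computed for the ratio in the windows, and its difference from that of the whole lists was not tested. Of the 36 CAL27 regions, 18 were also listed in SCC13, or 50.0% (95% exact Clopper-Pearson interval 32.9 to 67.1), beside 32.2% of the whole CAL27 list. Of the 24 SCC13 regions, 18 (75.0%, 53.3 to 90.2) were listed in CAL27, beside 75.6% of the whole list, a share near the background. Both shares divide the same 18 regions by the counts, so the ratio and the shares are not separate results. With 1 locus left out, the CAL27 share ran from 43.8% without EREG and AREG to 56.0% without EGFR. Shared regions had identical start and end in both lists, here and in the whole series. At the 3 receptor loci 6 of 15 CAL27 regions (40.0%) and 6 of 7 SCC13 regions (85.7%) were shared, and at the 4 ligand loci 10 of 17 (58.8%) and 10 of 14 (71.4%). The order of receptors and ligands was opposite in the lines, but the same 6 and 10 shared regions counted in both. The intervals of receptors and ligands overlapped in each line, and the differences were not tested. Regions of one locus are neighbours and not independent, and the intervals cover counting error only.

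Per length, p63 regions were more frequent in these windows than over the genome. The density was 11.6 per Mb in CAL27 (95% exact Poisson interval 8.11 to 16.0), against 4.72 per Mb between the first and last listed region of all chromosomes. In SCC13 it was 7.72 per Mb (4.94 to 11.5), against 2.01 per Mb. EGFR reached 28.2 per Mb in CAL27 (14.1 to 50.5) and 10.3 per Mb in SCC13 (2.79 to 26.3). ERBB2 followed in CAL27 with 20.0 per Mb, then HBEGF and ERRFI1 with 18.2 each. In SCC13 the order was led by ERBB3 with 15.4 per Mb, from 2 regions, and by HBEGF and ERRFI1 with 13.6 each. NRG1 was lowest in both, at 3.79 and 2.27 per Mb, near the densities of the whole lists. Intervals of neighbouring loci in these orders overlapped. The windows are centred on genes, while the genome as a whole is not, so a higher density here is no measure of binding particular to this family.

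Set against all consecutive genome windows of its own length, the EGFR locus was among the most crowded of CAL27. Of 7499 windows of 390 kb, 0.427% held 11 or more CAL27 regions; the median was 1 and the highest 18. For the 4 regions of SCC13 the share was 3.31%. The other loci of CAL27 were less unusual, with 7.58% of windows at least as crowded for ERBB2, 7.32% for HBEGF and for ERRFI1, 13.0% for TGFA, 17.1% for EREG and AREG, and 36.6% for ERBB3. In SCC13, whose list is shorter, equal counts are rarer. There the shares were 1.98% for TGFA, 2.73% for HBEGF and for ERRFI1, 2.99% for EREG and AREG, 4.32% for ERBB3 and 23.0% for ERBB2. For NRG1 53.2% of windows in CAL27 and 42.1% in SCC13 held as many, so this locus was ordinary in both lists. Under 5% of windows were as crowded for 1 of 8 loci in CAL27 and for 6 of 8 in SCC13, or for 3 of 8 in SCC13 when windows without any region were left out.

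**Figure D3:**
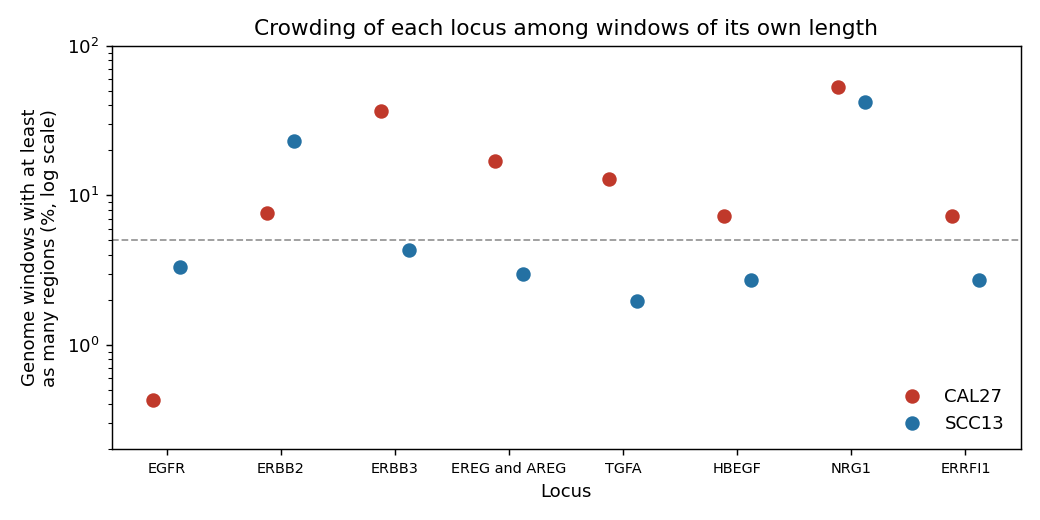
Percentage of genome windows of the same length that hold at least as many p63 regions as the locus (y axis, log scale), for each locus (x axis) and list (colour); the dashed line marks 5%. The EGFR locus of CAL27 is lowest at 0.427%, and NRG1 is highest in both lists.

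Regions at these loci often had a close neighbour. With midpoints within 12.5 kb joined, CAL27 had 7 groups of at least 2 regions, which took in 17 of its 36 regions, or 47.2% (95% exact interval 30.4 to 64.5), beside 25.2% of all CAL27 regions. SCC13 had 3 groups with 8 of its 24 regions, or 33.3% (15.6 to 55.3), beside 12.3% of all SCC13 regions. The SCC13 groups, at EGFR, at EREG and AREG, and at ERRFI1, were also groups in CAL27, with 1 region more at EGFR. CAL27 had a further group of 2 at EGFR and 1 each at ERBB2, HBEGF and NRG1. ERBB3 and TGFA had none in either line. The widest EGFR region joined its group at a midpoint distance of 12.493 kb, just under the limit. With midpoints within 5 kb joined, SCC13 had groups only at EREG and AREG and at ERRFI1. The EGFR group of CAL27 then held 2 regions. Crowded windows hold more neighbours by construction, so these shares and the densities are not separate results.

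Most regions of CAL27 at these loci were wider than the median of that list. Of the 36, 27 (75.0%) exceeded the list's median of 791 bp, and the median of the 36 was 878 bp. Some were only just wider than the list's median, such as those of 793 bp at EGFR and 795 bp at ERRFI1. No interval was computed for this share. In SCC13 14 of the 24 (58.3%) exceeded the list's median of 862 bp, and their median was 910 bp. Of regions wider than the median, 15 of 27 were shared in CAL27, or 55.6% (95% exact interval 35.3 to 74.5), against 44.3% of the wider regions of the whole list. In SCC13 it was 12 of 14, or 85.7% (57.2 to 98.2), against 90.6%. Both intervals included the value of the whole list. Widths do not measure how strongly p63 was bound. Shared regions had identical ends in both lists, so their widths are not separate measurements of the lines, and how the ends were set is not given. The shared regions of the loci had a median of 946 bp (934 bp for all shared regions), the CAL27-only regions 810 bp (723 bp) and the SCC13-only regions 742 bp (590 bp). EGFR regions ranged from 450 to 1842 bp, the greatest range of any locus, and HBEGF regions only from 738 to 893 bp.

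**Figure D4:**
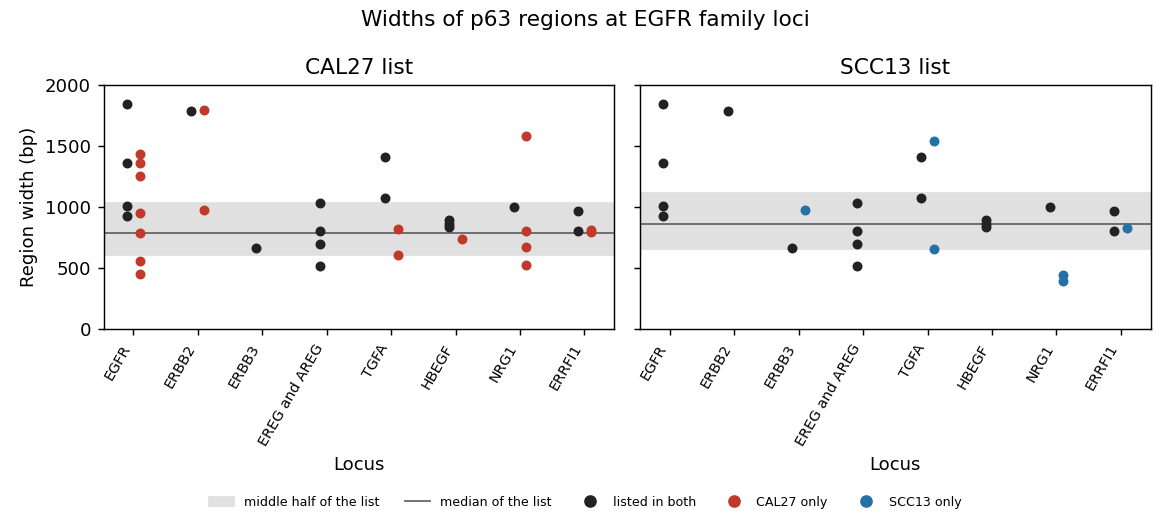
Width in bp (y axis) of each p63 region by locus (x axis), in the CAL27 list (left) and the SCC13 list (right), coloured by whether both lists hold it; the line is the median of the whole list and the band the middle 50% of its widths. The widest points, at EGFR and ERBB2, lie above the band in both lists.

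The choice of window edges changed the counts of several loci. With windows narrowed by 50 kb on each side (25 kb for ERBB2 and ERBB3), 28 of the 36 CAL27 and 20 of the 24 SCC13 regions were left, and HBEGF and ERRFI1 fell from 4 to 2 in CAL27 and TGFA from 4 to 2 in SCC13. With windows widened by 50 kb, EREG and AREG had 7 regions in place of 4 in CAL27 and ERBB2 had 2 in place of 1 in SCC13. The region nearest inside an edge was the ERBB2 region 0.986 kb from it, followed by the SCC13-only TGFA region at 1.56 kb and the CAL27-only HBEGF region at 5.88 kb. The nearest one outside was the CAL27-only region 8.11 kb above the EREG and AREG window, followed by the CAL27-only region 30.4 kb below it and the SCC13-only region chr17:37974853-37975155, 35.0 kb above the ERBB2 window. The other 13 of 16 edges had no outside region within 50 kb. EGFR had none for 64.3 kb below and 103 kb above its window.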

How the data were processed

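For each line the authors deposited 1 table of regions that holds chromosome, start and end and no other value. Bowtie2, SAMtools 1.8, MACS2 and the build hg19 are named in the submitters' processing notes, with no role stated. How peaks were thresholded, how both replicates were merged and what the samples titled none served for is not given in the sources used here. Positions are printed counted from 1.

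Regions were assigned by midpoint and matched between lists by an overlap of at least 1 bp. Genome windows were laid end to end from the first to the last listed region of each chromosome. Intervals are exact at 95% and cover counting error only. Members, windows and measures were chosen with earlier results of these data known, so no p-value is given. All 9 genes and all 42 regions are named or counted. Gene order and promoter sequences are from RefSeq, GRCh38.p14; all 9 genes matched in gene order. Of 7 other EGF family genes, EPGN and BTC stand beside a member and 5 were not placed. No hg19 annotation was used. Functions were tested on simulated lists. The software was Python 3.11.15 with pandas 2.3.3, scipy 1.17.1, matplotlib 3.10.9 and numpy 2.4.6.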

Additional observations from a re-analysis of the deposited data

How the results depend on the processing

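No paired analysis was possible because each line has 1 list for both replicates, so leaving out a replicate was not possible either. A stricter peak threshold could not be tried without scores. Counts of regions wider than their list's median were taken as another setting, but width is no measure of binding. This filter kept 2936 of the 5886 regions of the whole SCC13 list, so counts fall by construction. Over the loci in SCC13 it left 14 in place of 24. Without the NRG1 locus, the longest window, the density was 17.3 per Mb in place of 11.6 in CAL27 and 11.7 in place of 7.72 in SCC13. With windows that hold no region left out, 3 in place of 6 SCC13 loci had under 5% of windows as crowded, since fewer windows were counted. Of the other recomputed sums, shares, densities, window counts and groups, 54 stayed within 1.5 times or their counting interval, under other window edges and tilings, joining distances of 5 and 25 kb, a match within 1 kb and the omission of each locus. A further 4, the shared percentages under 50% overlap and identical ends, could not change because shared regions have identical positions. Among values of single loci 28 of 96 moved further. Leaving out windows without a region raised all 16 window shares, in CAL27 to 0.620% for EGFR, 13.7% for HBEGF, 17.4% for ERBB2 and 91.6% for ERBB3. With wider regions only, 7 counts fell by more than 1.5 times, under a filter that lowers counts by construction. In CAL27 these were EREG and AREG from 4 to 2, NRG1 from 5 to 3 and ERBB3 from 1 to 0. In SCC13 they were EREG and AREG from 4 to 1, NRG1 and ERRFI1 from 3 to 1 and ERBB3 from 2 to 1. The remaining 5, with window edges moved, are those given above.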
